A study of Mus musculus with 27 samples.

Results

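The comparison set 3 libraries of CD11c+CD11b+ macrophages sorted from tumour-bearing mouse lungs against 2 libraries of CD11b+Ly6C+ monocytes sorted from WT lungs without tumour. These 5 of the 27 libraries in the series were chosen by their sort labels, and no measured value entered the choice. The tumour group were C57BL/6 mice that had received HKP1 cells, a cultured lung cancer line, through the tail vein, and their lungs were taken at day 20 to 25 of tumour growth. The WT monocytes came from C57BL/6 mice labelled as free of tumour. Lungs were perfused and dissociated to single cells, the cells were stained with antibodies and sorted, and the RNA was sequenced after TruSeq library preparation. Both gates required CD11b, the integrin alpha M chain, so the contrast asks which transcripts a recruited monocyte would have to gain or lose to resemble the macrophages of the tumour-bearing lung. Cell type, gate and tumour differed together between the groups, and their parts cannot be told apart. The labels do not say how many mice each library holds, or whether the libraries of a group came from separate mice, so the p-values measure only the spread between these libraries.

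Classical monocytes leave the bone marrow through the chemokine receptor CCR2, travel in blood, and can mature into macrophages once they have entered a tissue. Maturing macrophages typically enlarge their acidic lysosomes, take up dying cells and lipid, and make complement C1q. In mouse lung the resident alveolar macrophages carry CD11c but little CD11b, whereas macrophages that arise from recruited monocytes can carry both.

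Levels are FPKM, fragment counts scaled to transcript length and library size, given in the order of replicates 1, 2 and 3 for tumour macrophages and 3 and 4 for WT monocytes. Differences are tumour macrophages minus WT monocytes on the log2(FPKM + 1) scale with their SE, and this scale understates the change of genes with low levels. A gene was called when its adjusted p (limma, Benjamini-Hochberg) was under 0.05, and a gene given with its levels was called unless stated otherwise.

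The shared gate marker differed little between the groups. Itgam, which encodes CD11b, had 119, 119.9 and 142 FPKM in tumour macrophages, against 145 and 148 FPKM in WT monocytes, a difference of -0.21 ± 0.13 that was not called (adjusted p = 0.23), with all 3 tumour macrophage libraries just below both WT monocyte libraries. Itgax, which encodes CD11c, had 452, 458 and 464 FPKM in tumour macrophages, against 24.2 and 40.4 FPKM in WT monocytes. All 3 tumour macrophage libraries lay far above both monocyte libraries, and Itgax rose by 3.83 ± 0.21 (adjusted p = 5.48e-05). Ptprc, the pan-leukocyte phosphatase CD45, fell to 146, 138 and 132 FPKM in tumour macrophages, against 382 and 331 FPKM in WT monocytes. The Ly6C part of the monocyte gate was not checked.

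Of 10517 genes tested, 1979 (18.8%) were higher and 2556 (24.3%) lower in tumour macrophages, and the median difference over all genes tested was -0.05. The gene list counts below are to be read beside these shares. At least a 1 log2 difference was seen in 999 of the higher and 1357 of the lower genes. Single libraries of different groups differed by 1 log2 or more at 2430 to 2882 of the 10517 genes, against 80 to 337 genes between tumour macrophage libraries and 478 genes between the WT monocyte libraries. All libraries of tumour macrophages lay above both WT monocyte libraries at 3104 of the 10517 genes and below both at 3849. The WT monocyte libraries differed from each other more than any pair of tumour macrophage libraries. Leaving out WT monocyte replicate 4 gave 1600 higher and 1499 lower genes.

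**Figure D1:**
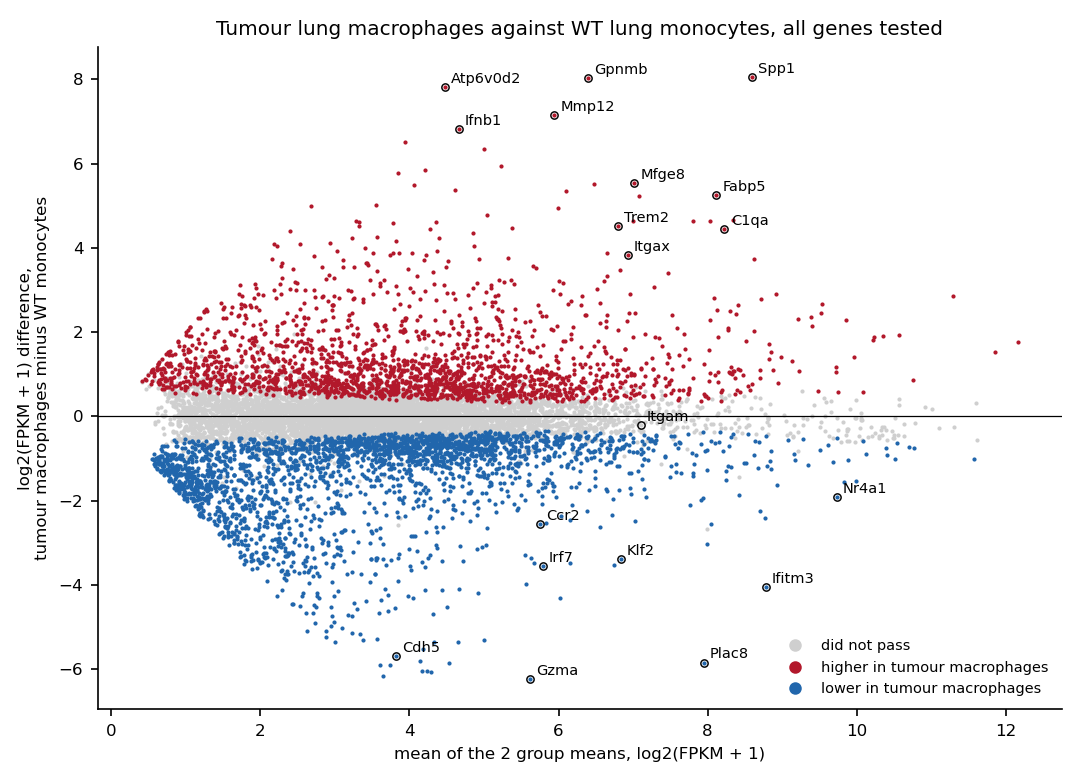
Difference between tumour macrophages and WT monocytes (vertical axis, log2(FPKM + 1)) against the mean of the 2 group means (horizontal axis, log2(FPKM + 1)), 1 point per gene tested. Left out are the 6 genes whose FPKM was 0 in every library of 1 group and averaged at least 5 in the other. Red points are the genes called higher and blue points those called lower in tumour macrophages; Itgam lies near 0 while Itgax, Spp1 and Gpnmb lie far above and Plac8 far below.

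**Figure D2:**
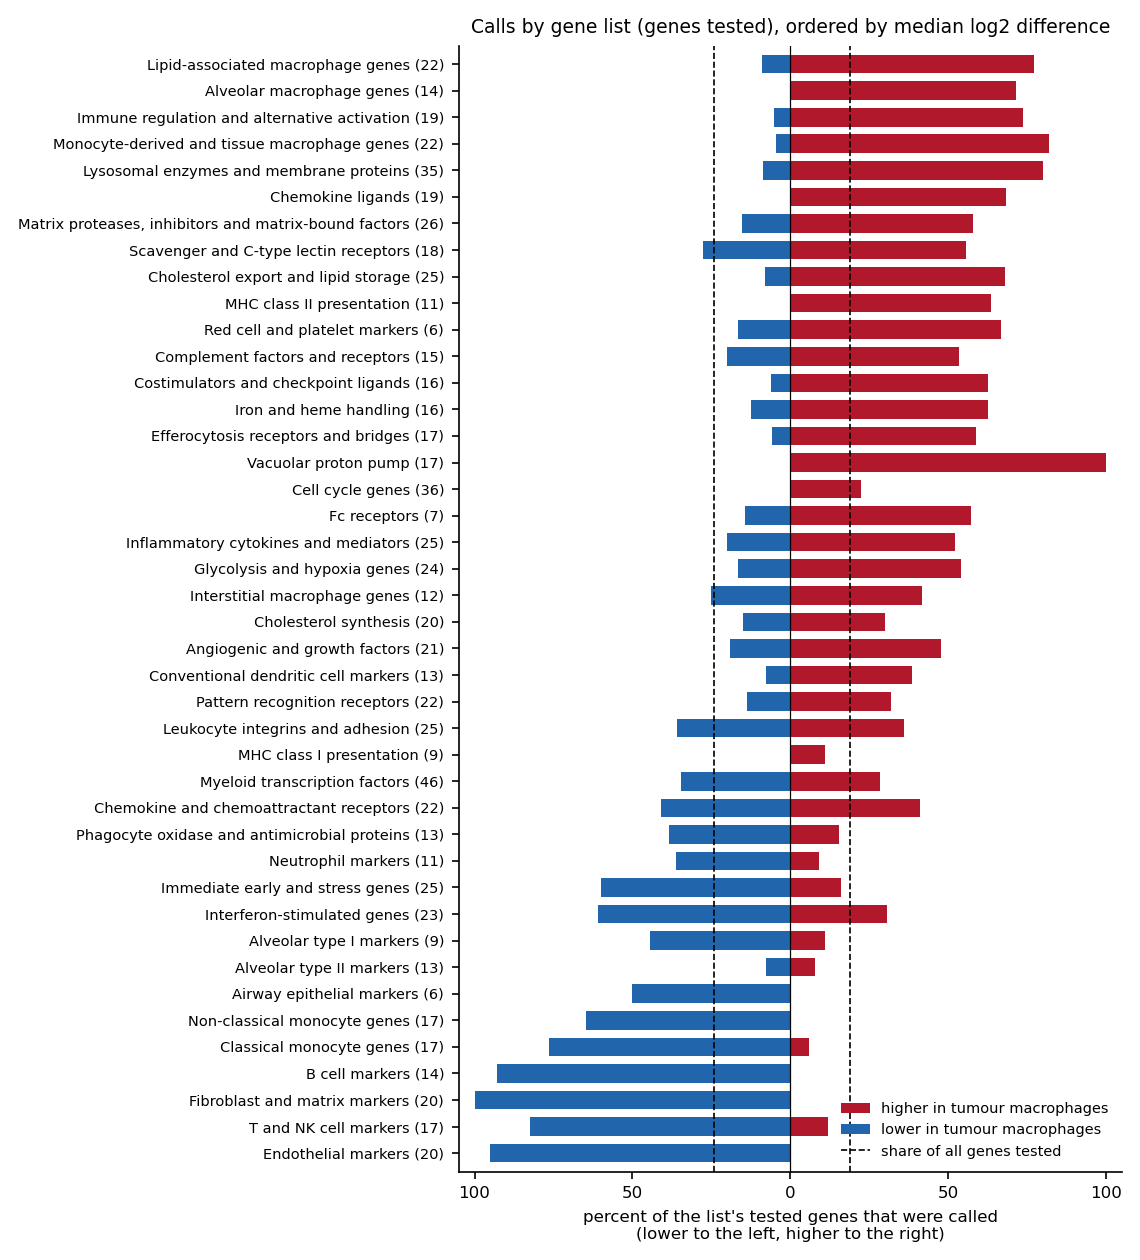
Share of each gene list's tested genes called higher (red bars to the right) or lower (blue bars to the left) in tumour macrophages than in WT monocytes, in percent, with the number tested after each name and dashed lines at the shares over all genes tested, 18.8% and 24.3%. Lists run by median log2 difference, from endothelial, T and NK cell, fibroblast and B cell markers, mostly lower, to lipid-associated and alveolar macrophage genes, mostly higher.

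Among the 15 largest rises, 2 genes belong to the lipid-associated macrophage list, 1 to the lysosomal list and 1 to the dendritic cell list. Spp1, the matrix cytokine osteopontin, had 4700.1, 4925 and 10806 FPKM in tumour macrophages, against 17.1 and 30.1 FPKM in WT monocytes. Gpnmb, a transmembrane glycoprotein of lysosomes and phagosomes, had 1429.7, 1198 and 1474 FPKM in tumour macrophages, against 1.69 and 9.06 FPKM in WT monocytes. Atp6v0d2, a membrane subunit of the proton pump used by macrophages and osteoclasts, had 299, 292 and 425 FPKM in tumour macrophages, against 0.347 and 0.617 FPKM in WT monocytes. In each of these genes every tumour library exceeded both monocyte libraries by a wide margin, with log2 differences of 8.06, 8.03 and 7.83. Only genes without overlap between the groups could enter the 15 largest rises or the 15 largest falls. The lack of overlap in these genes therefore follows from the choice. Mmp12, the macrophage elastase, had 713, 827 and 671 FPKM in tumour macrophages, against 2.46 and 6.64 FPKM in WT monocytes (difference 7.16 ± 0.31, adjusted p = 3.66e-05). The other members of this group were Ifnb1, Syngr1, Ccl22, Ccl17, Ctsk, Lhfpl2, Mfge8, Il1a, F7, AA467197 and Cxcl1, with differences between 6.52 and 5.35 for those other than Ifnb1.

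Of the 15 largest falls, 6 belong to the endothelial list, 3 to the T and NK cell list and 2 to the classical monocyte list. Gzma, a granule protease of cytotoxic lymphocytes, had 6.41, 16.4 and 0.426 FPKM in tumour macrophages, against 295 and 614 FPKM in WT monocytes (difference -6.23 ± 0.95). Cdh5, the cadherin of endothelial junctions, had 1.06, 1.36 and 0.60 FPKM in tumour macrophages, against 123 and 81.9 FPKM in WT monocytes (difference -5.68 ± 0.25). Cldn5, a tight junction protein of the same cells, had 1.26, 0.575 and 0.45 FPKM in tumour macrophages, against 117 and 90.2 FPKM in WT monocytes (difference -5.91 ± 0.24). Endothelial and cytotoxic lymphocyte genes were thus at high levels in both WT monocyte libraries and low in all 3 tumour macrophage libraries.

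The summed levels of marker lists gave the size of this difference. The 20 endothelial markers summed to 70.1, 71.9 and 63.3 FPKM in tumour macrophages, against 1813 and 1136 FPKM in WT monocytes, and 19 of 20 fell, with Sox17 at 0 in tumour macrophage replicate 3. The same sum was 751 to 1568 FPKM in 3 WT total lung libraries, so the sums of both WT monocyte libraries were within or above those of unsorted lung. Fibroblast and matrix markers summed to 214, 223 and 184 FPKM in tumour macrophages, against 748 and 729 FPKM in WT monocytes, and 20 of 20 fell (12 of 14 without WT monocyte replicate 3 and 13 of 14 without replicate 4, where fewer members passed the level filter). B cell markers summed to 44.8, 34.5 and 15.6 FPKM in tumour macrophages, against 246 and 349 FPKM in WT monocytes, where WT total lung had 1209 to 2122 FPKM, and 13 of 14 fell. With 1 WT monocyte library left out, whichever it was, only 14 of the 20 endothelial and 11 of the 14 B cell markers passed the level filter. The rest passed it only with the help of the WT monocyte libraries, where they were high. T and NK cell markers summed to 152, 158 and 99.2 FPKM in tumour macrophages, against 646 and 1389 FPKM in WT monocytes, where WT total lung had 1180 to 1316 FPKM. In that list 14 of 17 fell, against 9 of 15 without WT monocyte replicate 4, and the 2 that rose, Cd4 and Il7r, can also be made by myeloid cells. Cd4, the T helper cell co-receptor, had 45.2, 33.7 and 32.6 FPKM in tumour macrophages, against 1.59 and 2.79 FPKM in WT monocytes (difference 3.59 ± 0.23). Il7r, the interleukin 7 receptor chain, had 68.4, 68.6 and 57.4 FPKM in tumour macrophages, against 6.24 and 4.08 FPKM in WT monocytes (difference 3.43 ± 0.19). The neutrophil list summed to 879, 409 and 543 FPKM in tumour macrophages, against 356 and 3221 FPKM in WT monocytes, with replicate 4 far above replicate 3 in WT monocytes. Of 11 neutrophil markers 1 was higher and 4 lower, against 7 lower without WT monocyte replicate 3 and 3 higher without replicate 4. In bulk RNA, fewer cells of a type and less RNA per cell cannot be told apart. Of the lower genes, 1598 of 2556 had a higher mean in a total lung or epithelial preparation than in both groups, as had 978 of the 1979 higher genes and 7448 of all 10517. With those genes left out, 1037 genes were higher and 998 lower among 3069. The part of other cells' RNA in single falls was not tested.

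**Figure D3:**
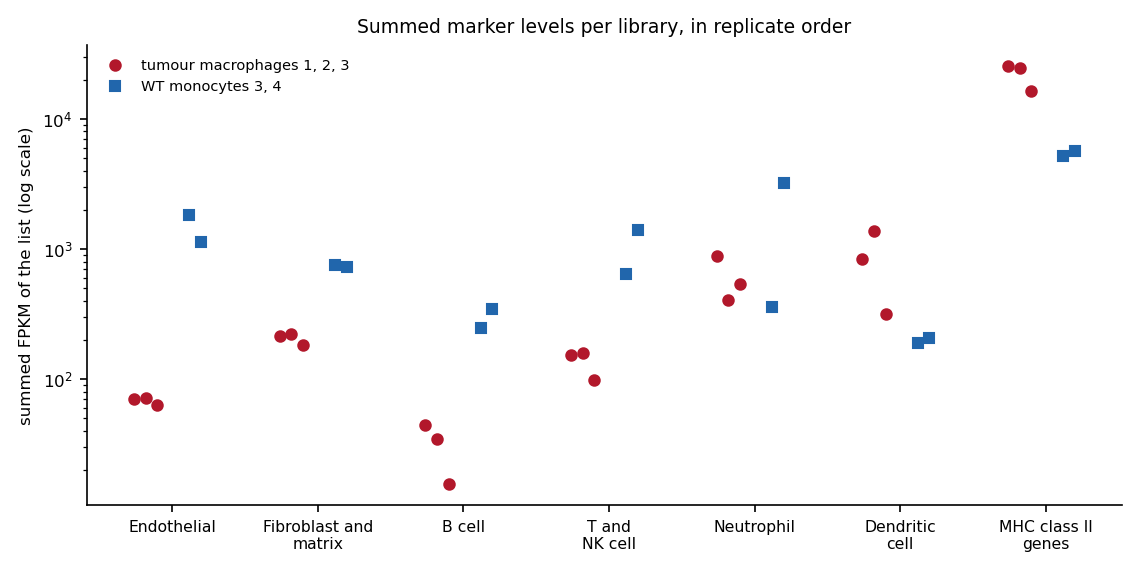
Summed FPKM (vertical log axis) of 6 marker lists and of the MHC class II genes, 1 point per library, tumour macrophages as red circles (replicates 1, 2 and 3) and WT monocytes as blue squares (replicates 3 and 4). Endothelial sums lie between 63.3 and 71.9 FPKM in tumour macrophages and at 1136 and 1813 FPKM in WT monocytes, while dendritic cell and MHC class II sums are lowest in tumour macrophage replicate 3 within its group.

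Genes of classical monocytes were mostly lower. Of 17 tested, 13 fell, 1 rose and 3 were not called, with a list median of -2.52 beside -0.05 over all genes. With 1 tumour macrophage library left out, 12 or 13 fell. With either WT monocyte library left out, only 15 of the 17 were tested and fewer were called lower. The rest passed the level filter only with the help of the WT monocyte libraries. Plac8, a small cysteine-rich protein abundant in Ly6C monocytes, had 56.7, 39.7 and 13.8 FPKM in tumour macrophages, against 2315 and 1512 FPKM in WT monocytes. Ccr2, the receptor for the monocyte attractant CCL2, had 20.6, 25.4 and 18.4 FPKM in tumour macrophages, against 162 and 103 FPKM in WT monocytes. The groups did not overlap for either gene, and the differences were -5.84 ± 0.54 and -2.55 ± 0.22, with adjusted p = 2.51e-04 for Ccr2. In tumour monocytes, a separate sort from tumour-bearing lung, Ccr2 stood at 123 and 144 FPKM and Plac8 at 1067 and 1706 FPKM.

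Among the coagulation factors of this list, F13a1 and F5 fell. F13a1, coagulation factor XIII chain A, had 10.6, 9.44 and 27.7 FPKM in tumour macrophages, against 211 and 136 FPKM in WT monocytes (difference -3.49 ± 0.44). F5, coagulation factor V, had 0.211, 0.317 and 0.271 FPKM in tumour macrophages, against 6.5 and 17.4 FPKM in WT monocytes (difference -3.21 ± 0.36). Only the WT monocyte libraries, where it was high, brought F5 through the level filter, and it was not tested when either was left out. F10, coagulation factor X, had 50.1, 54.1 and 71.6 FPKM in tumour macrophages, against 51.3 and 30.3 FPKM in WT monocytes, overlapped between the groups and was not called. Hp, which encodes the haemoglobin scavenger haptoglobin, had 30.4, 22 and 74.7 FPKM in tumour macrophages, against 284 and 188 FPKM in WT monocytes (difference -2.61 ± 0.48). Cd177, a surface protein best known from neutrophils, fell by 4.37 and Gpr141, an orphan receptor, by 3.37 on the log2 scale. Vcan (versican), Emilin2, Itgb7, S100a4 and Thbs1 (thrombospondin 1) also fell, the last 2 with adjusted p of 0.026 and 0.0103 and calls that were lost in some alternatives. Fn1, the matrix protein fibronectin, went against the list with 341, 425 and 460.4 FPKM in tumour macrophages, against 216 and 178 FPKM in WT monocytes, and rose by 1.05 ± 0.18 (adjusted p = 0.00353). Ly86, an accessory protein of toll-like receptor signalling, had 229.6, 206 and 199.6 FPKM in tumour macrophages, against 228 and 222 FPKM in WT monocytes, and neither it nor Mgst1, a membrane glutathione transferase, was called.

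**Figure D4:**
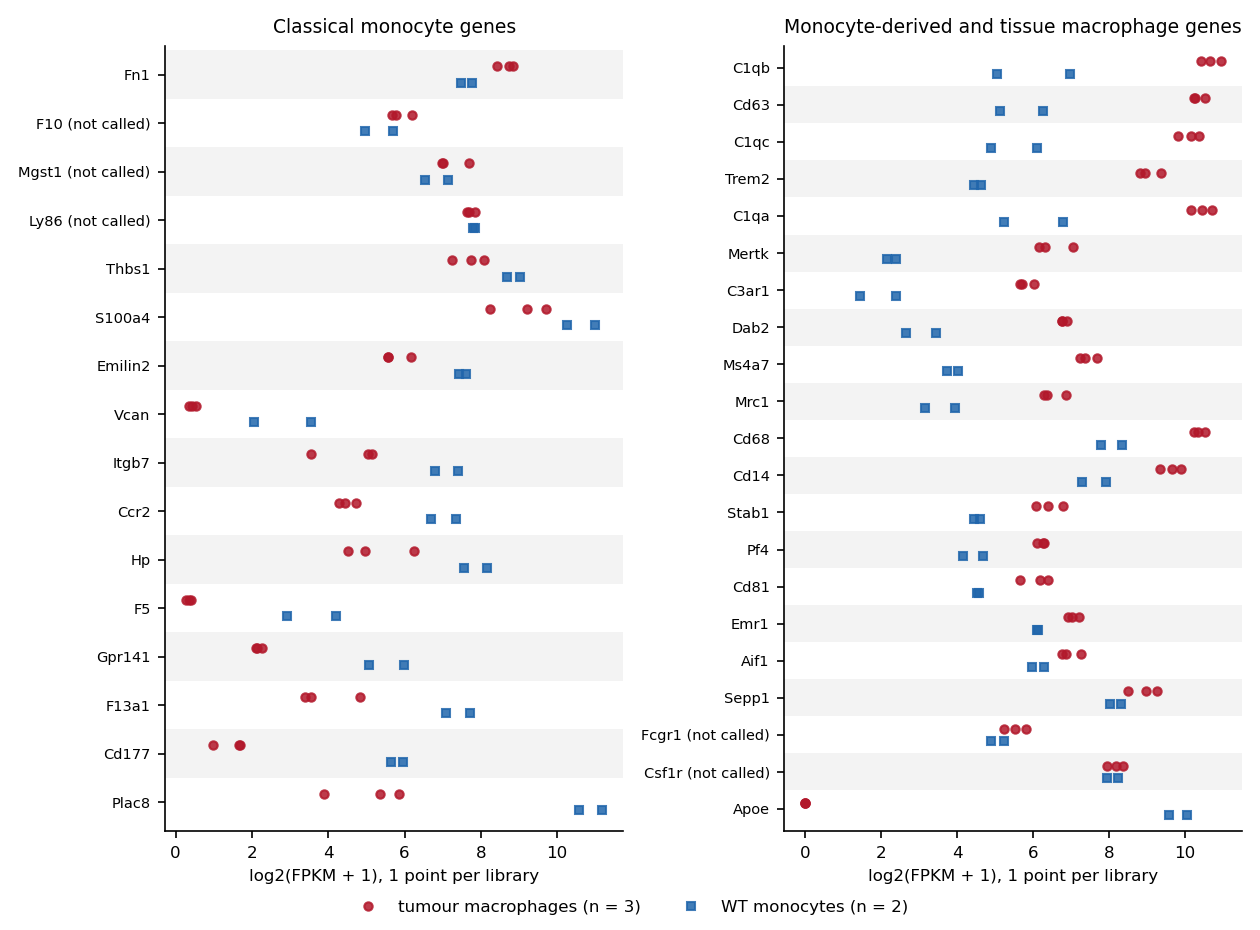
Level of the members reported here of the classical monocyte list (left) and the macrophage list (right), log2(FPKM + 1) on the horizontal axis, 1 point per library with tumour macrophages as red circles (n = 3) and WT monocytes as blue squares (n = 2). Plac8 has the widest gap on the left; on the right the C1q chains and Trem2 lie far higher in tumour macrophages, and Apoe is listed at 0 in all 3 of them.

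Genes linked to non-classical monocytes, the patrolling cells that stay in vessels, were lower in 11 of 17 and higher in 0 (list median -1.90). Ace, the angiotensin-converting enzyme, had 3.12, 3.49 and 6.19 FPKM in tumour macrophages, against 222 and 179.8 FPKM in WT monocytes (difference -5.30 ± 0.26). Spn, the sialomucin CD43, had 4.68, 6.76 and 4.39 FPKM in tumour macrophages, against 56.5 and 63.2 FPKM in WT monocytes (difference -3.30 ± 0.19). Nr4a1, a nuclear receptor that patrolling monocytes require, had 435, 428 and 452 FPKM in tumour macrophages, against 1888 and 1431 FPKM in WT monocytes (difference -1.90 ± 0.17). Each tumour library lay below both WT libraries in these genes. Tumour monocytes had 1859 and 2013 FPKM of Nr4a1. Endothelial cells also make Ace, whose WT total lung level was 89.7 ± 38 FPKM (SD, n = 3), and the share of such cells in its fall was not tested. Cd36, a scavenger receptor for fatty acids and lipoproteins, was not called, at 184, 183 and 220.3 FPKM in tumour macrophages, against 184 and 133 FPKM in WT monocytes. When genes higher in total lung or epithelial cells were left out, 7 of the 11 members still tested were lower.

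Macrophage genes showed the opposite pattern. In the list of monocyte-derived and tissue macrophage genes 18 of 22 rose and 3 were not called, and the last, Apoe, was listed at 0 in tumour macrophages (median 2.31 without Apoe). C1qa, C1qb and C1qc, which encode the 3 chains of complement C1q, had 1402, 1153 and 1671 FPKM in tumour macrophages, against 36.3 and 109 FPKM in WT monocytes for C1qa, and differences of 4.44 ± 0.43, 4.66 ± 0.51 and 4.63 ± 0.35. C1qa in tumour monocytes was intermediate, at 423 and 228 FPKM. Mertk, a receptor tyrosine kinase that recognises dying cells, had 79.4, 69.9 and 132 FPKM in tumour macrophages, against 3.49 and 4.23 FPKM in WT monocytes (difference 4.23 ± 0.27). Trem2, a lipid-sensing receptor of tissue macrophages, had 494, 448 and 664 FPKM in tumour macrophages, against 20.8 and 23.7 FPKM in WT monocytes (difference 4.51 ± 0.19). C3ar1, the receptor for complement C3a, had 51.1, 49.1 and 64.5 FPKM in tumour macrophages, against 1.7 and 4.28 FPKM in WT monocytes (difference 3.88 ± 0.29). None of these ranges overlapped.

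Other members of the list also rose, though not all. Cd68, a lysosomal membrane glycoprotein, had 1300.1, 1208 and 1473 FPKM in tumour macrophages, against 322 and 221 FPKM in WT monocytes (difference 2.31 ± 0.20). Cd14, the lipopolysaccharide co-receptor, had 806, 654 and 948 FPKM in tumour macrophages, against 239.5 and 156 FPKM in WT monocytes (difference 2.03 ± 0.24). Emr1, which encodes the macrophage antigen F4/80, had 129, 120.2 and 147 FPKM in tumour macrophages, against 68.3 and 69.4 FPKM in WT monocytes, a difference of 0.93 ± 0.13 (adjusted p = 0.00167). Ms4a7, Dab2, Mrc1 (the mannose receptor), Stab1, Pf4, Cd81, Aif1 and Sepp1 rose with differences of 3.56, 3.75, 2.96, 1.90, 1.79, 1.53, 0.83 and 0.72. Csf1r, the receptor for the growth factor that sustains monocytes and macrophages, had 292, 247 and 332 FPKM in tumour macrophages, against 302 and 245 FPKM in WT monocytes, and was not called (adjusted p = 0.718). Fcgr1, the high-affinity Fc receptor, had 45.4, 36.6 and 54.9 FPKM in tumour macrophages, against 36.5 and 28.6 FPKM in WT monocytes, and was not called (adjusted p = 0.0988).

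Alveolar macrophage genes were called higher in 10 of 14 and lower in 0 (median 2.52), several of them at low levels. Marco, a scavenger receptor of resident alveolar macrophages, had 8.55, 5.92 and 13.2 FPKM in tumour macrophages, against 0.0479 and 0.222 FPKM in WT monocytes, while WT lung macrophages, sorted as CD11c+CD11b-, had 155 and 174 FPKM. Pparg, the nuclear receptor that alveolar macrophages need, had 21, 18.9 and 35.1 FPKM in tumour macrophages, against 2.01 and 3.31 FPKM in WT monocytes, beside 122 and 127 FPKM in WT macrophages. Both were thus far below the WT macrophage level while above that of WT monocytes. Atp6v0d2, given above, stood at 353 and 349 FPKM in WT macrophages. Fabp4, a fatty acid carrier, had 129, 141 and 272 FPKM in tumour macrophages, against 19.8 and 21.4 FPKM in WT monocytes, beside 123 and 127 FPKM in WT macrophages. Fabp5, a second fatty acid carrier, had 1602, 1649.8 and 1922 FPKM in tumour macrophages, against 58.4 and 32.7 FPKM in WT monocytes, beside 248 and 248 FPKM in WT macrophages. Car4, a carbonic anhydrase, and Il18, an inflammasome cytokine, were not called, at 18.9, 19.5 and 31.2 FPKM of Il18 in tumour macrophages, against 30.8 and 20.8 FPKM in WT monocytes and 308 and 323 FPKM in WT macrophages. The Itgam level in WT macrophages was 1.2 and 1.4 FPKM. With genes higher in total lung or epithelial preparations left out, 5 of the 5 alveolar macrophage genes still tested were higher.

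The interstitial macrophage list was mixed, with 5 of 12 higher, 3 lower and a median of 0.36 (3 higher when either WT monocyte library was left out). Ccl12, a monocyte attractant, had 64.7, 51.8 and 30.4 FPKM in tumour macrophages, against 0.257 and 2.48 FPKM in WT monocytes (difference 4.51 ± 0.47). Mgl2, a galactose-binding lectin, had 144, 157 and 43.6 FPKM in tumour macrophages, against 5.56 and 19.7 FPKM in WT monocytes (difference 3.11 ± 0.66). Lyve1, a hyaluronan receptor that lymphatic endothelium shares, had 0.31, 1.07 and 0.813 FPKM in tumour macrophages, against 83 and 42.7 FPKM in WT monocytes, with a WT total lung level of 38.9 ± 18.2 FPKM (SD, n = 3). Cd163, a haemoglobin receptor, fell too, and the lineage factor Maf was not called, at 8.36, 6.08 and 13.6 FPKM in tumour macrophages, against 9.79 and 8.69 FPKM in WT monocytes.

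Lipid-associated macrophage genes, a set seen in lipid-laden macrophages of several tissues, rose in 17 of 22. Spp1, Gpnmb, Trem2 and Fabp5 are given above. Cd63, a tetraspanin of late endosomes, had 1210.1, 1233 and 1490.2 FPKM in tumour macrophages, against 34.3 and 75.9 FPKM in WT monocytes (difference 4.65 ± 0.31). Lpl, the lipoprotein lipase, had 290.5, 302 and 612 FPKM in tumour macrophages, against 35.8 and 30.3 FPKM in WT monocytes (difference 3.48 ± 0.32). Igf1, a growth factor, had 53.7, 54.9 and 69.7 FPKM in tumour macrophages, against 0.796 and 5.22 FPKM in WT monocytes (difference 4.17 ± 0.47). All 3 tumour libraries were above both monocyte libraries in each. Cst7, a cysteine protease inhibitor, was lower, at 2.94, 2.67 and 1.98 FPKM in tumour macrophages, against 8.99 and 28.2 FPKM in WT monocytes (difference -2.28 ± 0.43). Like Cst7, the T and NK cell marker sum was lower in tumour macrophages and highest in WT monocyte replicate 4. The part of such cells in the fall of Cst7 was not tested. Tyrobp, the signalling adaptor of TREM2, had 2037, 1888 and 2354 FPKM in tumour macrophages, against 1854 and 1729 FPKM in WT monocytes, and was not called. The list median was 2.78 without Apoe, beside -0.05 over all genes.

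Receptors and bridges for dying cells were higher in 10 of 17 and lower in 1 (median 1.08). Mfge8, a secreted bridge between phosphatidylserine and integrins, had 962, 799 and 884 FPKM in tumour macrophages, against 17.8 and 18.2 FPKM in WT monocytes, a difference of 5.53 ± 0.13 (adjusted p = 4.89e-06). Its levels in tumour monocytes, 40.7 and 40.1 FPKM, and in WT macrophages, 9.91 and 13.2 FPKM, were also far below those of tumour macrophages. Axl, a receptor kinase related to Mertk, had 230.2, 231 and 331 FPKM in tumour macrophages, against 21.4 and 44.3 FPKM in WT monocytes (difference 3.04 ± 0.31). Its ligand Gas6 had 23.7, 19.1 and 32.6 FPKM in tumour macrophages, against 13 and 9.42 FPKM in WT monocytes (difference 1.08 ± 0.25). Itgb5, an integrin chain that pairs with alpha V to bind Mfge8, had 176, 161 and 261 FPKM in tumour macrophages, against 19.1 and 21.1 FPKM in WT monocytes (difference 3.22 ± 0.21). Abca1, the cholesterol exporter that engulfing cells use, had 65.8, 56.8 and 74.6 FPKM in tumour macrophages, against 3.24 and 5.11 FPKM in WT monocytes (difference 3.70 ± 0.20). Itgb3, which also pairs with alpha V, was lower, at 0.56, 0.537 and 0.612 FPKM in tumour macrophages, against 3.82 and 4.92 FPKM in WT monocytes. Itgb3 passed the level filter only through the WT monocyte libraries and was not tested when either of them was left out. Rac1, a GTPase of engulfment, was not called.

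Lysosomal genes were mostly higher. Of 35 tested, 28 rose, 4 were not called, and 3 were lower, of which Ctsd and Psap were listed at 0 (median 1.97 without these). With either WT monocyte library left out, Ctsd and Psap no longer passed the level filter, and 33 of the 35 were tested. Ctss, cathepsin S, had 6252, 6122 and 8164 FPKM in tumour macrophages, against 1077 and 800.4 FPKM in WT monocytes (difference 2.87 ± 0.24). Ctsk, cathepsin K, had 99.3, 159 and 171 FPKM in tumour macrophages, against 0.713 and 2.45 FPKM in WT monocytes (difference 5.85 ± 0.35). Naglu, an enzyme that degrades heparan sulfate, had 71.8, 66.8 and 91.9 FPKM in tumour macrophages, against 5.7 and 5.41 FPKM in WT monocytes (difference 3.56 ± 0.17). Lipa, the lysosomal acid lipase, had 279, 284 and 489.6 FPKM in tumour macrophages, against 43.3 and 45.3 FPKM in WT monocytes (difference 2.91 ± 0.25). No tumour library fell within the WT range in these genes. Lower was Gla, alpha-galactosidase A, at 97.5, 83.7 and 77.6 FPKM in tumour macrophages, against 120.2 and 133 FPKM in WT monocytes (difference -0.55 ± 0.14). The call of Gla was lost without tumour macrophage replicate 2 or WT monocyte replicate 4. Ctsd, cathepsin D, was listed at 0 FPKM in all 3 tumour macrophage libraries, against 517 and 462 FPKM in WT monocytes, and Psap, prosaposin, likewise, against 2074 and 1800.1 FPKM in WT monocytes. No fold is given for these 2 genes or for Apoe, which had 771 and 1065 FPKM in WT monocytes. An exact 0 for genes that most cells use can be a failed estimate, and the summed lysosomal level, 20472, 19619 and 25441 FPKM in tumour macrophages, against 8083 and 7009 FPKM in WT monocytes, counts them at 0.

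All 17 tested subunits of the vacuolar proton pump, which acidifies lysosomes, rose (14 to 17 of 17 with 1 library left out). The median was 1.03, and the summed level was 3103, 3113 and 3935 FPKM in tumour macrophages, against 1526 and 1478 FPKM in WT monocytes. Besides Atp6v0d2, Atp6v0a1 had 62.4, 60.2 and 81.2 FPKM in tumour macrophages, against 12.1 and 9.17 FPKM in WT monocytes (difference 2.56 ± 0.18). Atp6v1c1 had 85.9, 91.1 and 105 FPKM in tumour macrophages, against 21 and 15.7 FPKM in WT monocytes (difference 2.31 ± 0.16). Atp6v1a, the catalytic subunit, had 91.9, 93 and 126 FPKM in tumour macrophages, against 28.7 and 20.2 FPKM in WT monocytes (difference 2.05 ± 0.21). Atp6v1f, a small subunit, had the smallest log2 difference of the list, 0.53, at 258, 259 and 247 FPKM in tumour macrophages, against 160.2 and 193 FPKM in WT monocytes. In each of the 17 every tumour macrophage library lay above both WT monocyte libraries, as it did at 3104 of all 10517 genes.

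Promoter windows are shown for 3 of these genes because many lysosomal genes carry E-box motifs that factors of the MiT/TFE family can bind. Windows run from 250 bases before to 50 bases after the RefSeq start (GRCm38.p6), 5′ to 3′ on the strand of the gene, with each CACGTG in capitals; the motif reads the same on both strands. The windows are chr8:13158911-13159210 (plus strand), chr4:117887280-117887579 (minus strand) and chr16:44139210-44139509 (minus strand).
Lamp1: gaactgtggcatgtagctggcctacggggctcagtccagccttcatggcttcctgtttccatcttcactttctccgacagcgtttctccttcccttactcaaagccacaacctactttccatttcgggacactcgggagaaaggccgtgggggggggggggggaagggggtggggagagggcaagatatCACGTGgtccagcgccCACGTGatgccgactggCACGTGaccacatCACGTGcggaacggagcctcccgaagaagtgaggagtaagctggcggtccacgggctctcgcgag
Atp6v0b: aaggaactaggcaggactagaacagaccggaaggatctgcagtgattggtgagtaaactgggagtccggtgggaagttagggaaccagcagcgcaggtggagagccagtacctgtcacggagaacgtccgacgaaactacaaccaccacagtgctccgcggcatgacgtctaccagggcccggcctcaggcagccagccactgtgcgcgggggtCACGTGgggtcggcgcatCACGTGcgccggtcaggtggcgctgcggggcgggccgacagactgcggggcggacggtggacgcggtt
Atp6v1a: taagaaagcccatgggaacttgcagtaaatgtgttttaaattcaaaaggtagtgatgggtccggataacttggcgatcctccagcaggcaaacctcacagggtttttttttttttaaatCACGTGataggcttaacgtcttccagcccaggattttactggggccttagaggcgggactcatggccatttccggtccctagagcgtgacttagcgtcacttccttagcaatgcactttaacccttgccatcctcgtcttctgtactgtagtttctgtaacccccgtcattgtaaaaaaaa
Lamp1, a main lysosomal membrane protein, held 4 matches between 61 and 15 bases before its start and had 832, 796 and 1049 FPKM in tumour macrophages, against 405 and 307 FPKM in WT monocytes (difference 1.33 ± 0.20). Atp6v0b held 2 matches and had 250.1, 239 and 285 FPKM in tumour macrophages, against 176 and 174 FPKM in WT monocytes (difference 0.55 ± 0.13). CACGTG was found in 9 of 28 lysosomal genes with a window (32.1%) and in 4 of 12 proton pump genes (33.3%), beside 965 of 8033 tested genes with a window (12%) and 2349 of all 32851 windows (7.15%). A match is a description of these letters and not a shown binding site.

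**Figure D5:**
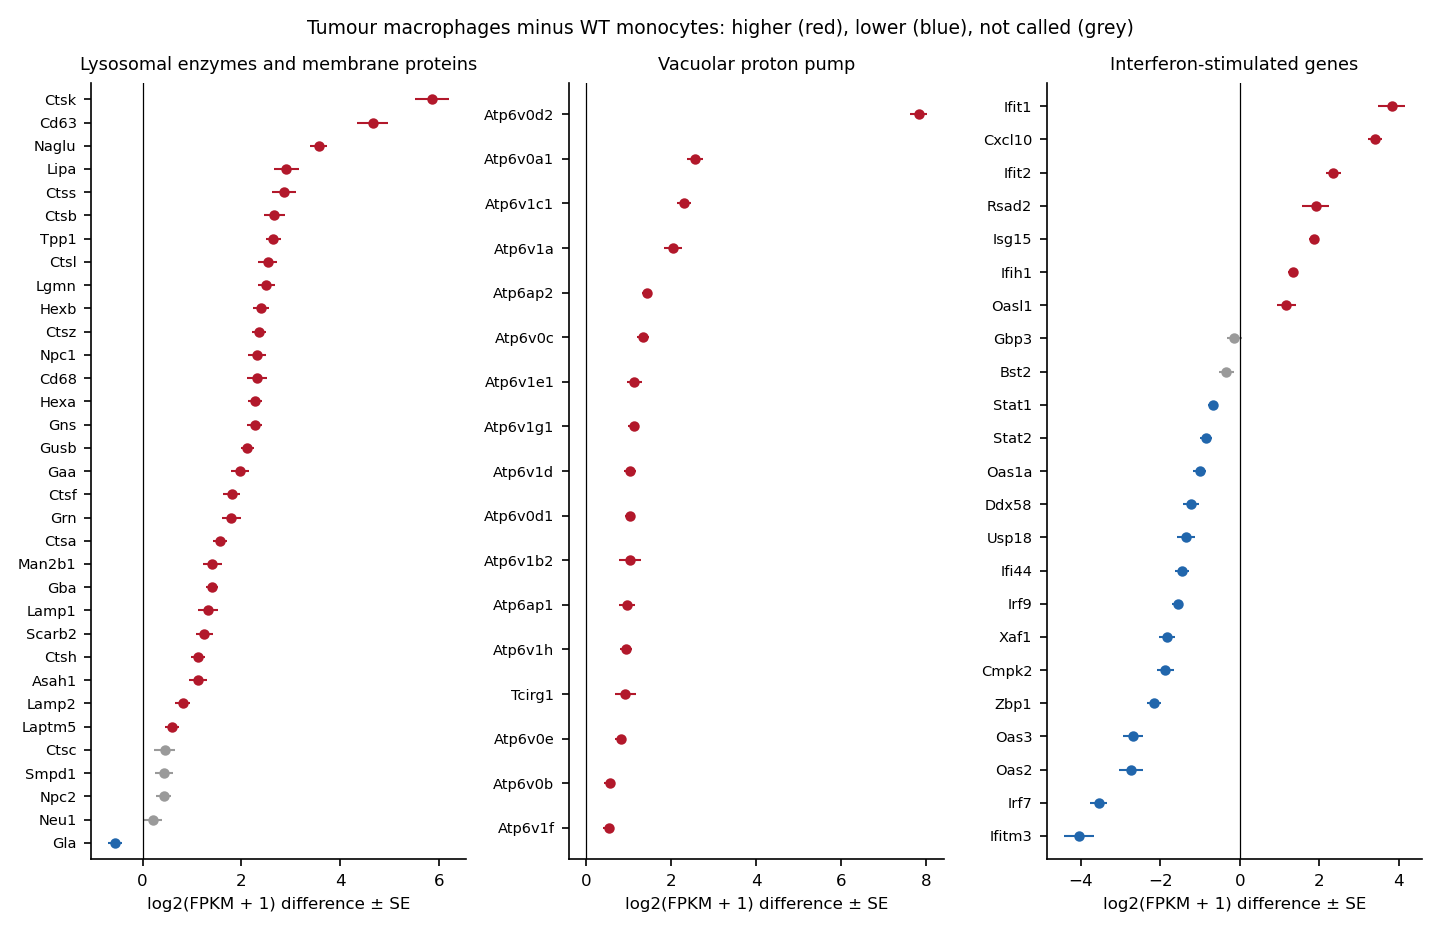
Difference between tumour macrophages and WT monocytes (horizontal axis, log2(FPKM + 1), point with SE) for each tested lysosomal gene (left, leaving out Ctsd and Psap), proton pump subunit (middle) and interferon-stimulated gene (right). Red marks genes called higher, blue lower and grey not called: the proton pump lies wholly to the right of 0, while the interferon-stimulated genes split into 7 higher and 14 lower.

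Transcription factors moved both ways, with 13 of 46 higher (28.3%), 16 lower (34.8%) and 17 not called (median -0.09). Over all genes tested, which also moved both ways, the shares were 18.8% higher and 24.3% lower. Without tumour macrophage replicate 1 the lower count was 10. Among MiT/TFE factors, Mitf had 22.5, 19.8 and 30.2 FPKM in tumour macrophages, against 5.06 and 4.24 FPKM in WT monocytes (difference 2.14 ± 0.20). Tfec had 34.6, 31.6 and 52.2 FPKM in tumour macrophages, against 4.79 and 3.83 FPKM in WT monocytes, and both were called higher. Tfeb had 25.6, 29.3 and 29.6 FPKM in tumour macrophages, against 32.5 and 26.3 FPKM in WT monocytes, and was not called. Bhlhe41 and Bhlhe40, repressors that alveolar macrophages need, rose: Bhlhe41 had 27.1, 22.8 and 44.3 FPKM in tumour macrophages, against 0.608 and 2.55 FPKM in WT monocytes (difference 3.71 ± 0.39). Egr2, an early growth response factor of macrophages, had 78.2, 96.5 and 110.0 FPKM in tumour macrophages, against 7.88 and 18.4 FPKM in WT monocytes (difference 2.86 ± 0.32). Nr1h3, the oxysterol receptor LXR alpha, and its partner Rxra rose by 1.02 and 1.06, and Hif1a, the hypoxia factor, by 0.99. The groups did not overlap in any gene named so far in this list except Tfeb.

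Among factors that fell, Klf2, a Krüppel-like factor of quiescent leukocytes and endothelium, had 32.3, 34.2 and 36.4 FPKM in tumour macrophages, against 345 and 394 FPKM in WT monocytes (difference -3.39 ± 0.12). Klf4, which monocyte development needs, had 89.5, 108 and 116 FPKM in tumour macrophages, against 489 and 410.1 FPKM in WT monocytes (difference -2.10 ± 0.16). Irf8, another factor of monocyte development, had 78.9, 83.5 and 74.3 FPKM in tumour macrophages, against 103 and 138 FPKM in WT monocytes (difference -0.60 ± 0.15, adjusted p = 0.0204; called in 14 of 17 alternatives). Id1 and Id3, inhibitors of helix-loop-helix factors, fell by 3.03 and 1.89, and Cebpd by 2.18. Cebpa, a factor of myeloid differentiation, rose by 0.94, while Cebpb had 162, 134 and 190.2 FPKM in tumour macrophages, against 278 and 176 FPKM in WT monocytes, and was not called. WT total lung had 583 ± 91 FPKM of Klf2 and 35.3 ± 12.9 FPKM of Id1 (SD, n = 3), and the endothelial sum moved with them; its part in these falls was not tested.

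Among the other transcription factors, Nr4a3, Id2 and Runx1 rose by 2.26, 0.85 and 0.73. Jun, Klf13, Bach1, Atf3, Tcf4, Klf6 and Irf5 fell by 1.54, 1.40, 1.01, 0.92, 0.77, 0.61 and 0.59, and Fos and Fosl2 were also lower. The calls of Nr4a3, Atf3, Tcf4, Klf6, Irf5 and Fosl2 were each lost in at least 1 alternative. Irf4, Tfe3, Nr4a2, Runx3, Zeb2, Egr1, Egr3, Nfe2l2, Rel, Relb, Batf3, Etv5 and Spic were not called, with differences between -0.75 for Irf4 and 0.85 for Relb.

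Chemokine ligands rose in 13 of 19 and fell in 0 (median 1.79). Ccl17, a ligand of CCR4 on T cells, had 327, 598 and 129 FPKM in tumour macrophages, against 5.42 and 2.55 FPKM in WT monocytes (difference 5.95 ± 0.60). Ccl22, which binds the same receptor, had 343, 626 and 111 FPKM in tumour macrophages, against 1.15 and 4.92 FPKM in WT monocytes (difference 6.34 ± 0.73). Both were highest in tumour macrophage replicate 2 and lowest in replicate 3, as was the dendritic cell marker sum given below, yet every tumour library exceeded the monocytes. The part of dendritic cells in these rises was not tested. Cxcl1, a neutrophil attractant, had 381, 466 and 472 FPKM in tumour macrophages, against 6.88 and 13.8 FPKM in WT monocytes. Cxcl16, a membrane-bound chemokine and scavenger receptor, had 378, 364 and 238 FPKM in tumour macrophages, against 26.2 and 35.9 FPKM in WT monocytes (difference 3.34 ± 0.24). Cxcl10, an interferon-induced ligand of CXCR3, had 667, 610.2 and 464 FPKM in tumour macrophages, against 54.3 and 53.1 FPKM in WT monocytes (difference 3.39 ± 0.18). Ccl2, the ligand of CCR2, had 165, 189 and 111 FPKM in tumour macrophages, against 272 and 125 FPKM in WT monocytes, and was not called, and Ccl5 and Ccl3 were not called either. The highest level without a call was that of Ccl3, a chemokine that draws leukocytes to inflamed tissue, at 1760.0, 1626 and 1873 FPKM in tumour macrophages, against 1199 and 1454 FPKM in WT monocytes.

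Receptors moved both ways, with 9 of 22 higher and 9 lower (40.9% each, list median -0.23), beside 18.8% and 24.3% of all genes tested. C3ar1 and Fpr1, a receptor for bacterial formyl peptides, rose; Fpr1 had 7.03, 5.07 and 10.2 FPKM in tumour macrophages, against 0.204 and 0.589 FPKM in WT monocytes (difference 2.56 ± 0.29). Ccr7, which guides cells to lymph nodes, had 246, 382 and 85.4 FPKM in tumour macrophages, against 41.8 and 43.5 FPKM in WT monocytes, and lost its call in 3 of 16 alternatives. Ccr2 fell as given above, and S1pr1, the receptor for blood sphingosine phosphate, had 7.23, 6.56 and 4.63 FPKM in tumour macrophages, against 69.4 and 51.9 FPKM in WT monocytes (difference -3.12 ± 0.22). S1pr5, a related receptor of patrolling monocytes and NK cells, had 0, 0.221 and 0 FPKM in tumour macrophages, against 9.28 and 11.9 FPKM in WT monocytes (difference -3.43 ± 0.20). It passed the level filter only through the WT monocyte libraries, where it was high, and was not tested when either of them was left out. Ltb4r1, a leukotriene B4 receptor, had 2.88, 4.98 and 3.26 FPKM in tumour macrophages, against 37.5 and 22.2 FPKM in WT monocytes (difference -2.69 ± 0.28). Cxcr2, the main neutrophil chemokine receptor, was not called. NK and endothelial marker sums moved in the same direction as S1pr5 and S1pr1, and their part was not tested.

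Inflammatory mediators were higher in 13 of 25 and lower in 5 (median 0.59). Tnf, the inflammatory tumour necrosis factor, had 1461, 1419.9 and 1456 FPKM in tumour macrophages, against 74.4 and 153 FPKM in WT monocytes (difference 3.75 ± 0.29). Il1a, an alarmin of the interleukin 1 family, had 610.4, 579 and 612 FPKM in tumour macrophages, against 8.95 and 16.3 FPKM in WT monocytes (difference 5.52 ± 0.23). Il1rn, the natural antagonist of the same receptor, had 295, 296 and 302 FPKM in tumour macrophages, against 14.8 and 63.8 FPKM in WT monocytes (difference 3.22 ± 0.52). Il23a, a subunit of interleukin 23, had 16.8, 14.2 and 12.1 FPKM in tumour macrophages, against 0.394 and 0.771 FPKM in WT monocytes (difference 3.28 ± 0.21). Il12b, the subunit it shares with interleukin 12, had 21.1, 36.8 and 7.25 FPKM in tumour macrophages, against 0.316 and 0 FPKM in WT monocytes (difference 4.05 ± 0.58). Ltc4s, the leukotriene C4 synthase, had 29.3, 28.7 and 42.5 FPKM in tumour macrophages, against 1.44 and 4.31 FPKM in WT monocytes (difference 3.24 ± 0.34). In these genes the tumour libraries lay above the monocytes without overlap. Osm (oncostatin M) and Nfkbiz (a regulator of NF-kappaB) were not called, with Nfkbiz at 349, 323 and 323 FPKM in tumour macrophages, against 375 and 323 FPKM in WT monocytes.

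Ifnb1, which encodes interferon beta, was among the largest rises. It had 269.5, 259 and 274 FPKM in tumour macrophages, against 0.0503 and 4.43 FPKM in WT monocytes, a difference of 6.81 ± 0.60 (adjusted p = 2.49e-04). The 3 tumour libraries lay close together, and the 2 monocyte libraries lay far below them but differed widely from each other. Tumour monocytes had 82.5 and 11.3 FPKM, and both WT macrophage libraries were listed at 0.

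Genes induced by interferon did not move as a block: 7 of 23 rose, 14 fell and 2 were not called (median -1.01). With each of the 5 libraries left out in turn, 7 were higher and 13 or 14 lower, and with genes higher in total lung or epithelial preparations left out, 7 were higher and 13 lower among 22. Ifit1, which binds foreign RNA caps, had 74.6, 70.9 and 62.1 FPKM in tumour macrophages, against 6.62 and 2.22 FPKM in WT monocytes, and Cxcl10 rose as given above. Ifih1, the RNA sensor MDA5, had 41.4, 38.6 and 42.9 FPKM in tumour macrophages, against 16.2 and 14.9 FPKM in WT monocytes (difference 1.34 ± 0.12). Against these, Ifitm3, a membrane protein that blocks virus entry, had 150.2, 134 and 60.9 FPKM in tumour macrophages, against 1956 and 1633 FPKM in WT monocytes (difference -4.05 ± 0.37). Irf7, the factor that amplifies type I interferon, had 19.6, 11.8 and 14.9 FPKM in tumour macrophages, against 198 and 178 FPKM in WT monocytes (difference -3.55 ± 0.21). Oas2 and Oas3, enzymes whose products activate RNase L, fell. Oas3 had 2.45, 1.69 and 3.4 FPKM in tumour macrophages, against 24.5 and 18.3 FPKM in WT monocytes (difference -2.69 ± 0.25). Ddx58, the RNA sensor RIG-I, had 8.9, 6.12 and 9.49 FPKM in tumour macrophages, against 21.6 and 18.7 FPKM in WT monocytes, so the 2 sensors of this pathway moved in opposite directions. Bst2 (tetherin) had 185, 129 and 184 FPKM in tumour macrophages, against 202 and 211 FPKM in WT monocytes, and was not called.

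The promoter windows of a pair that rose and of a gene that fell are shown to compare their interferon elements, searched as GAAA, any 2 bases and GAAA again on both strands, and printed in capitals in whichever orientation it occurs. The windows are chr4:156200769-156201068 (minus strand), chr19:34640639-34640938 (plus strand) and chr5:120777610-120777909 (minus strand), from RefSeq on GRCm38.p6.
Isg15: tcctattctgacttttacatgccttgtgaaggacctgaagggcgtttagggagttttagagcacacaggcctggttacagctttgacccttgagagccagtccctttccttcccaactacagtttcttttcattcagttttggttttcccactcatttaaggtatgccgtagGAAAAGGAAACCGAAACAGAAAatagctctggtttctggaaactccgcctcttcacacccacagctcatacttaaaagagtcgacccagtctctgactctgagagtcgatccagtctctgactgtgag
Ifit1: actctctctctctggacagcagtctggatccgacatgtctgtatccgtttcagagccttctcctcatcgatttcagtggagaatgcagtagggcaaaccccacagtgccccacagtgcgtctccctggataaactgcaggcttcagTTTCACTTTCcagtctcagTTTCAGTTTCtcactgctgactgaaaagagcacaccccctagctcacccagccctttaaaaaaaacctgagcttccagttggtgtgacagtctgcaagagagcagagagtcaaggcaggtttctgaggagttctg
Oas3: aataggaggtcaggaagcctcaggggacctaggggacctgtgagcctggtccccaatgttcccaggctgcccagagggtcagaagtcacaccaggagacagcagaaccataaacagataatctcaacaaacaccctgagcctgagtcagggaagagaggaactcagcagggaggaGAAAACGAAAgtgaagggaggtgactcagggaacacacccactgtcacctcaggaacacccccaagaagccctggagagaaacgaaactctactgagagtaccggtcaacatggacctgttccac
Isg15, a ubiquitin-like modifier named after its values were seen, held 3 overlapping matches between 78 and 66 bases before its start and had 327, 314 and 291 FPKM in tumour macrophages, against 84.2 and 84.2 FPKM in WT monocytes (difference 1.87 ± 0.12). Ifit1 held 2 matches and Oas3 held 1, at 75 bases before the start. The element was found in 12 of 19 interferon-stimulated genes with a window (63.2%), beside 298 of 8033 tested genes (3.71%) and 1131 of 32851 windows (3.44%). By call it was found in 5 of 7 higher, 5 of 10 lower and 2 of 2 not called, and the difference between these shares was not tested.

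Antigen presentation by MHC class II was higher in 7 of 11 genes and lower in 0 (median 1.28). H2-Eb1 had 2445, 2345 and 902 FPKM in tumour macrophages, against 262 and 375 FPKM in WT monocytes (difference 2.46 ± 0.45). H2-Aa had 3528, 3472 and 1337 FPKM in tumour macrophages, against 617 and 736 FPKM in WT monocytes (difference 1.91 ± 0.43). Cd74, the invariant chain, had 8451, 8154 and 3621 FPKM in tumour macrophages, against 2039 and 2306 FPKM in WT monocytes (difference 1.54 ± 0.40, adjusted p = 0.0199; called in 12 of 17 alternatives). In all of these tumour macrophage replicate 3 was the lowest of its group, though still above both monocyte libraries. The dendritic cell marker sum was also lowest in replicate 3, at 840.5, 1367 and 315 FPKM in tumour macrophages, against 189 and 207 FPKM in WT monocytes, led by Ccl17, Ccr7 and the actin bundler Fscn1, with Fscn1 at 98.2, 194 and 37.5 FPKM in tumour macrophages, against 2.52 and 3.81 FPKM in WT monocytes (difference 4.46 ± 0.60). In that list 5 of 13 were higher (Ccl17, Ccr7, Fscn1, Itgae and Htr7) and 1, Clec9a, lower. Htr7 had 8.53, 7.7 and 2.59 FPKM in tumour macrophages and was listed at 0 in both WT monocyte libraries. Flt3, the receptor that dendritic cell development needs, had 16.6, 23.4 and 5.55 FPKM in tumour macrophages, against 19.6 and 23.9 FPKM in WT monocytes, and was not called, nor were Zbtb46, Dpp4, Kit, Batf3, Irf4 and Kmo. The part of dendritic cells in the class II rise was not tested. Without WT monocyte replicate 3 the count of higher class II genes was 3. MHC class I genes were called in 1 of 9, with B2m, the shared light chain, at 3382, 3438 and 3595 FPKM in tumour macrophages, against 2854 and 2674 FPKM in WT monocytes, and not called.

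Ligands and receptors that regulate T cells were higher in 10 of 16 and lower in 1 (median 1.22), with 2 lower without tumour macrophage replicate 3. The higher count depended on the libraries. It was 7 of 15 without tumour macrophage replicate 1 or 2 and 12 of 16 without replicate 3. It was also smaller than in the main fit with either WT monocyte library left out. Cd274, which encodes PD-L1, had 168, 165 and 199 FPKM in tumour macrophages, against 21.7 and 23.6 FPKM in WT monocytes (difference 2.91 ± 0.13). Pdcd1lg2, which encodes PD-L2, had 8.04, 10.6 and 3.13 FPKM in tumour macrophages, against 0.39 and 0.452 FPKM in WT monocytes (difference 2.41 ± 0.42). Havcr2, the checkpoint receptor TIM-3, had 54.6, 50.3 and 50.8 FPKM in tumour macrophages, against 18.1 and 13.6 FPKM in WT monocytes (difference 1.67 ± 0.15). Cd200r1, an inhibitory receptor of myeloid cells, had 31.2, 33.2 and 49.9 FPKM in tumour macrophages, against 3.19 and 1.21 FPKM in WT monocytes (difference 3.65 ± 0.32). Every tumour library was above both monocyte libraries. In the immune regulation list 14 of 19 rose and 1 fell (median 2.33). Arg1, arginase 1, had 81.3, 169 and 162 FPKM in tumour macrophages, against 0.604 and 24.4 FPKM in WT monocytes (difference 4.36 ± 1.04, adjusted p = 0.0145). The WT monocyte libraries lay far apart, and the call was lost in 2 of 17 alternatives. Il10, an anti-inflammatory cytokine, had 15.8, 9.14 and 7.11 FPKM in tumour macrophages, against 2.74 and 1.2 FPKM in WT monocytes (difference 1.96 ± 0.36). Tgfb1, the main transforming growth factor beta, had 131, 124 and 115 FPKM in tumour macrophages, against 134 and 131 FPKM in WT monocytes, and was not called.

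Pattern and uptake receptors changed gene by gene. Among scavenger and C-type lectin receptors 10 of 18 were higher and 5 lower (median 1.42), with 3 lower without tumour macrophage replicate 1 or 2 or WT monocyte replicate 3. Clec4n, the fungal receptor Dectin-2, had 295, 317 and 461 FPKM in tumour macrophages, against 15 and 7.2 FPKM in WT monocytes (difference 4.94 ± 0.31). Olr1, a receptor for oxidised lipoproteins, had 29.7, 37.2 and 59.2 FPKM in tumour macrophages, against 1.62 and 7.99 FPKM in WT monocytes (difference 3.09 ± 0.52). Clec9a, a receptor of cross-presenting dendritic cells, had 1.88, 2.58 and 1.91 FPKM in tumour macrophages, against 8.38 and 8.16 FPKM in WT monocytes (difference -1.58 ± 0.18). Among pattern recognition receptors 7 of 22 were higher (31.8%) and 3 lower (13.6%, list median 0.21), beside 18.8% and 24.3% of all genes tested. Tlr2, a receptor for bacterial lipopeptides, had 294, 291 and 399 FPKM in tumour macrophages, against 137 and 102 FPKM in WT monocytes (difference 1.45 ± 0.20). Nod1, a sensor of bacterial cell walls, had 8.19, 7.53 and 11.5 FPKM in tumour macrophages, against 38.4 and 35 FPKM in WT monocytes (difference -1.92 ± 0.19). Tlr7, a sensor of single-stranded RNA, was not called. Fc receptors were higher in 4 of 7: Fcgr4, the receptor for the mouse IgG2 classes, had 59, 46.1 and 82.7 FPKM in tumour macrophages, against 17.6 and 10.2 FPKM in WT monocytes (difference 2.10 ± 0.30). Fcer1g, the signalling chain of activating Fc receptors such as Fcgr4, had 977, 915 and 1097 FPKM in tumour macrophages, against 1069.5 and 967 FPKM in WT monocytes, and was not called.

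Matrix proteases and their partners were higher in 15 of 26 and lower in 4 (median 1.42). Mmp14, a membrane-bound collagenase, had 107, 105 and 145 FPKM in tumour macrophages, against 4.89 and 7.88 FPKM in WT monocytes (difference 4.04 ± 0.23). Mmp19, a secreted metalloproteinase, had 129.6, 151 and 161 FPKM in tumour macrophages, against 8.86 and 11.2 FPKM in WT monocytes (difference 3.75 ± 0.15). Plau, the urokinase that activates plasmin, had 193, 174 and 219.9 FPKM in tumour macrophages, against 5.04 and 11.8 FPKM in WT monocytes (difference 4.48 ± 0.30). Timp3, an inhibitor held in the matrix, fell by 3.46 to 0.639, 0.686 and 0.218 FPKM in tumour macrophages, against 18.3 and 13 FPKM in WT monocytes. Timp3 passed the level filter only through the WT monocyte libraries, where it was high, and was not tested when either of them was left out. The fibroblast and endothelial sums moved with Timp3, and their part in its fall was not tested. Tgfbi, a matrix protein induced by transforming growth factor beta, was not called, at 389.9, 412 and 474 FPKM in tumour macrophages, against 350.3 and 257 FPKM in WT monocytes.

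Growth factors were higher in 10 of 21 and lower in 4 (median 0.35). With either WT monocyte library left out, 19 of the 21 passed the level filter and were tested. Pdgfa, a platelet-derived growth factor chain, had 23.4, 23.7 and 18.9 FPKM in tumour macrophages, against 1.08 and 1.7 FPKM in WT monocytes (difference 3.27 ± 0.19). Gdf15, a stress-induced cytokine, had 404, 374 and 601 FPKM in tumour macrophages, against 57.5 and 48.7 FPKM in WT monocytes (difference 3.06 ± 0.22). Nrp2, a co-receptor for semaphorins and vascular growth factors, had 28.8, 33.6 and 54.5 FPKM in tumour macrophages, against 4.06 and 2.35 FPKM in WT monocytes (difference 3.23 ± 0.30). Vegfa, the main vascular growth factor, had 175, 173 and 155 FPKM in tumour macrophages, against 199 and 136 FPKM in WT monocytes, and was not called (adjusted p = 0.914), while in tumour monocytes it stood at 536 and 254 FPKM. Flt1 and Edn1 fell, both also made by endothelium, with Edn1 at 0.77, 1.95 and 0.416 FPKM in tumour macrophages, against 20.9 and 16.6 FPKM in WT monocytes (difference -3.33 ± 0.32).

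Adhesion genes again split, with 9 of 25 higher and 9 lower (36% each, list median 0.20), beside 18.8% and 24.3% of all genes tested. Itgae, the alpha E chain found on dendritic cells and T cells, had 26.7, 22.9 and 8.23 FPKM in tumour macrophages, against 1.62 and 0 FPKM in WT monocytes. Itga1, the alpha chain of a collagen receptor, had 0.613, 1.18 and 0.793 FPKM in tumour macrophages, against 14.5 and 11 FPKM in WT monocytes (difference -2.88 ± 0.21). Pecam1, shared by endothelium and leukocytes, had 4.0, 3.1 and 1.95 FPKM in tumour macrophages, against 124 and 79.4 FPKM in WT monocytes (difference -4.68 ± 0.28). Cd44, the hyaluronan receptor that also binds osteopontin, had 182, 193 and 165 FPKM in tumour macrophages, against 206 and 149 FPKM in WT monocytes, and was not called.

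Genes of lipid handling were mostly higher. In the cholesterol export and lipid storage list 17 of 25 were higher (median 1.5 without Apoe). Pla2g15, a lysosomal phospholipase, had 71.6, 64.9 and 148 FPKM in tumour macrophages, against 8.34 and 9.74 FPKM in WT monocytes (difference 3.16 ± 0.34). Acp5, an acid phosphatase of macrophages and osteoclasts, had 596, 568 and 765 FPKM in tumour macrophages, against 18.1 and 32.8 FPKM in WT monocytes (difference 4.65 ± 0.26). In the cholesterol synthesis list 6 of 20 were higher (30%) and 3 lower (15%, list median 0.36), beside 18.8% and 24.3% of all genes tested. Dhcr7, which makes cholesterol from its last precursor, had 15.8, 13.9 and 19.2 FPKM in tumour macrophages, against 4.68 and 4.16 FPKM in WT monocytes (difference 1.66 ± 0.18). The synthesis count ranged from 3 to 8 when 1 library was left out, with 8 without WT monocyte replicate 3 and 3 without replicate 4 or tumour macrophage replicate 1 or 2.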

How the data were processed

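The 5 libraries compared, 3 of tumour macrophages and 2 of WT monocytes, were read from the authors' deposited table of FPKM for 27 libraries, all 27 columns of which matched a label. Per the submitters' processing notes, reads were handled with CASAVA 1.8.2, TopHat2, Cufflinks and Cuffdiff on mm10. The table has 16024 rows, each with a human gene symbol beside the mouse one, and genes outside it, such as Ly6c, were not analysed here. FPKM removes library size and transcript length, and a gene listed at 0 in all libraries of a group was given no fold. Genes left out as listed at 0 were those that also averaged at least 5 FPKM in the other group. Total fragment counts were not analysed here. The spacing of the lowest values, which moves with depth, put the 5 libraries at 0.946 to 1.09 of the depth of tumour macrophage replicate 1, from the commonest ratio among genes under 0.2 FPKM.

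Genes with at least 1 FPKM in 2 of the 5 libraries (10517) were tested on log2(FPKM + 1) with limma 3.58.1 in R 4.3.3 (two-sided, intensity trend, Benjamini-Hochberg adjusted p under 0.05 over all genes tested), and the procedure was tested on simulated data. Tables and figures used Python 3.11.15, pandas 2.3.3, numpy 2.4.6 and matplotlib 3.10.9. No batch is given in the labels. The members and the 44 gene lists (923 entries, 836 in the table) were chosen with earlier results of these data known, so no list was tested as a whole. Genes to be named were drawn from the 15 largest rises and 15 largest falls that were called, did not overlap between groups and reached 5 FPKM in the higher group, with genes listed at 0 left out. To these were added up to 6 called members of each list with the largest change and the 2 uncalled members with the highest level, and all sort markers, classical monocyte, macrophage and transcription factor genes. Not every gene so chosen is described, and a few are not reported here. Atp6v0b, Atp6v1f, Ccl2, Cd163, Cd4, Cst7, Cxcr2, Dpp4, Flt3, Gla, Il7r, Isg15, Itgb3, Kit, Kmo, Lamp1, Sox17 and Zbtb46 fall outside this rule and were named after their values were seen. Pseudocounts, filters, scalings, fits with more groups, moderation, weights, left-out libraries, genes listed at 0 and genes high in total lung were varied. Promoter sequences are from RefSeq on GRCm38.p6, read for genes matched by symbol.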

Additional observations from a re-analysis of the deposited data

How the results depend on the processing

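No paired analysis was possible because the groups share only the replicate number 3. Against 1979 higher and 2556 lower genes, the counts moved by over 1.5 times under 2 of the 17 alternatives. With genes higher in total lung or epithelial preparations left out, 1037 were higher and 998 lower among 3069 tested. With 1 library left out, 1398 to 1792 genes were higher and 1499 to 2283 lower, with the lowest lower count without WT monocyte replicate 4, the lone WT library then being assumed to vary like the tumour group. The other alternatives, pseudocounts of 0.1 and 5, no filter, a filter of 5 FPKM, quantile and upper-quartile scaling, fits of all 10 groups or of 4 groups, robust moderation, array weights, and leaving out genes listed at 0 in a group, gave 1699 to 2478 higher and 1949 to 3093 lower. Of 249 called genes among the 328 named and tested, 216 were called in every alternative that gave a value, and none of the named genes changed direction while called. Of the gene-by-alternative values, 65 gained a call in the direction of the main fit and 96 lost one. The remaining 5254 kept their call, stayed uncalled, or were uncalled in the main fit and changed sign. Precision was limited by the 2 WT monocyte libraries. Fragment counts were not analysed here, so values under about 1 FPKM carry counting error that could not be given.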

Other observations

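Sugar and iron genes also differed. In the glycolysis and hypoxia list 13 of 24 were higher and 4 lower (median 0.55), with 2 lower without tumour macrophage replicate 2 or WT monocyte replicate 4. Hk2, the hexokinase that starts glycolysis in activated cells, had 59, 56.3 and 74.9 FPKM in tumour macrophages, against 13.7 and 14.4 FPKM in WT monocytes. Ldha, which makes lactate, had 269.9, 272 and 266 FPKM in tumour macrophages, against 128 and 118 FPKM in WT monocytes. Every tumour library lay above both monocyte libraries in these genes, whereas Slc2a3, a neuronal and leukocyte glucose transporter, had 2.34, 2.23 and 1.05 FPKM in tumour macrophages, against 5.31 and 18.5 FPKM in WT monocytes. In the iron list 10 of 16 were higher and 2 lower (median 1.19), with 3 lower without WT monocyte replicate 3 and 1 without replicate 4. Trf, the iron carrier transferrin, had 655, 594 and 939 FPKM in tumour macrophages, against 87.3 and 117 FPKM in WT monocytes, and Fth1, the ferritin heavy chain, had 8321, 7785 and 9294 FPKM in tumour macrophages, against 2879.6 and 2154 FPKM in WT monocytes. Hmox1, which breaks down heme, had 277, 279 and 656 FPKM in tumour macrophages, against 312 and 219 FPKM in WT monocytes, and was not called.

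Stress and early response genes were mostly lower, in 15 of 25, with 4 higher (median -0.89). Jun, a subunit of the AP-1 factor, had 584, 555 and 645 FPKM in tumour macrophages, against 1700.3 and 1764 FPKM in WT monocytes. Hspa1a, an inducible heat shock chaperone, had 302, 218 and 100.2 FPKM in tumour macrophages, against 1109 and 900.0 FPKM in WT monocytes, and its partner Dnajb1 had 75, 70.4 and 29.9 FPKM in tumour macrophages, against 312 and 303 FPKM in WT monocytes. All 3 tumour macrophage libraries were below both monocyte libraries, with replicate 3 the lowest for both chaperones. Egr2 rose, as given with the transcription factors.

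Cell cycle genes depended on the libraries. Mki67, a marker of dividing cells, had 19, 18.3 and 13.7 FPKM in tumour macrophages, against 2.34 and 10.3 FPKM in WT monocytes. Of 36 tested, 8 were higher and 0 lower (median 0.72), against 23 without WT monocyte replicate 4, 3 without replicate 3 and 4 without tumour macrophage replicate 1 or 2. Quantile normalization gave 13 and the fit of all 10 groups 19. In the main fit the share of cell cycle genes called higher, 22.2%, was near the 18.8% over all genes tested. In the oxidase and antimicrobial list 2 of 13 were higher and 5 lower (median -0.55), with Cyba, the small membrane subunit of the oxidase, at 1179.7, 1109.5 and 1382 FPKM in tumour macrophages, against 595 and 573 FPKM in WT monocytes, and 4 were higher without WT monocyte replicate 4.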
